A study of Homo sapiens with 6 samples.

Results

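The 10 genes described here encode the enzymes that make acetyl-CoA in the cytosol, build it into fatty acids, and lengthen and desaturate the products. They are ACLY, ACSS2, ACACA, ACACB, FASN, SCD, FADS1, FADS2, ELOVL5 and ELOVL6, and were picked by symbol in GENCODE 29 among the 25969 genes of the files. All 10 were found, and all 10 passed the filter for testing (a mean of 1 or more over the 6 libraries), which 20927 genes passed. RNA sequencing compared 3 libraries of cells labelled LNCaP, genotype VIM-AS1 overexpressed, that were transfected with a vector for the long noncoding RNA VIM-AS1, with 3 libraries of the same line, genotype WT, transfected with the pcDNA3.1 vector. LNCaP is an androgen-responsive human line that grew out of a metastatic prostate carcinoma. The question of the series is how more VIM-AS1 affects gene expression in these cells. No label gives the time after transfection or ties a library to its own culture. The p-values therefore reflect how far these libraries scatter, and that scatter may be technical. Values are normalized read counts as deposited, that is, reads divided by 1 factor per library.

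De novo fatty acid synthesis starts when citrate exported from mitochondria is split by ACLY, or acetate is activated by ACSS2, to give cytosolic acetyl-CoA. ACACA and ACACB carboxylate it to malonyl-CoA, and FASN condenses malonyl-CoA units into palmitate. ELOVL6 lengthens palmitate, ELOVL5 lengthens polyunsaturated chains, SCD puts the first double bond into saturated chains, and FADS2 and FADS1 desaturate polyunsaturated ones. Many of these genes are known targets of SREBP transcription factors, and prostate cancers are known for a high rate of lipid synthesis.

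VIM-AS1 itself was at 2197, 2019 and 2763 normalized reads in the overexpression libraries and at 8.63, 1.22 and 5.53 in the controls, in the direction of the labels. Libraries held 14762893 to 19889745 reads. In both groups the third library differed from the other two. Counts of called genes are therefore given from limma (a linear model across all genes) without and with a term for the third libraries, and the estimates for single genes with it. No label names them as a batch, the term was chosen with these data known, and its p-values may be too small. Defining markers of the LNCaP line were nearly absent: the prostate-specific antigen gene KLK3 was at 1.92 in control replicate 1 and at 0 in the other 5 libraries, and FOLH1 was at 0 in the overexpression libraries and at most at 3.84 in a control. The summed luminal markers, mostly KRT8 and KRT18, ran from 68179 to 121751 against 75855 to 138800. Summed adipocyte markers, from cells that make much fatty acid, were at 2.11 to 7.84 against 1.22 to 2.88. The 5 fibroblast markers summed to 974.2 to 1426 against 1660 to 1863, mostly COL1A1, with COL1A2 and LUM at or near 0. DCN, the next largest of them, was at 90.6, 91.1 and 119 against 208, 208 and 342. The 3 endothelial markers, mostly VWF, summed to 64.5 to 109 against 33.2 to 64.7, with PECAM1 at 0 except in control replicate 3 (5.53). The 3 basal markers summed to 4.90 to 17.9 against 24.9 to 40.3, mostly TP63 in the controls, and the leukocyte gene CD68 was at 0 against at most 3.84. Mitochondrially encoded reads were 5.57% to 7.06% of reads against 8.73% to 14.3%. The part of these differences in the results below was not tested.

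The windows before the start sites of 4 members that rose, and of ACACB, which did not pass, are shown because these genes sit in one pathway and moved unequally. Where a gene has several windows, one with a CCAAT box is shown, so every sequence printed holds a box. The second window of ACSS2 and the first of ACACA and of ACACB hold none. Windows of FADS1 and FADS2, which also rose, hold none and are not shown. Sequences are from RefSeq (GRCh38.p14), 5′ to 3′ on the gene's strand, leave out bases that are exon in GENCODE 29, and have in capitals each CCAAT box (CCAAT or ATTGG, the binding motif of the factor NF-Y).
ACLY, the first of 2 overlapping windows, chr17:41919023-41919272, minus strand: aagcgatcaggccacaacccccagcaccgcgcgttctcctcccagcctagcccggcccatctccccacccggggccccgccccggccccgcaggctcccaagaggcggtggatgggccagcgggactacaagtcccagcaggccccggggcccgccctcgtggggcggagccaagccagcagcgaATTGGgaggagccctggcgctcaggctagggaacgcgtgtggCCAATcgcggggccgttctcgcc
ACSS2, the first of 2 windows, chr20:34874739-34874941, plus strand: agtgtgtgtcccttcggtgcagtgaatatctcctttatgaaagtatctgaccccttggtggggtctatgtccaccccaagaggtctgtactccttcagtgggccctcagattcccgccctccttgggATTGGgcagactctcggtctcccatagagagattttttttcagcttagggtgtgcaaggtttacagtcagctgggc
ACACA, the second of 3 windows, chr17:37359122-37359346, minus strand: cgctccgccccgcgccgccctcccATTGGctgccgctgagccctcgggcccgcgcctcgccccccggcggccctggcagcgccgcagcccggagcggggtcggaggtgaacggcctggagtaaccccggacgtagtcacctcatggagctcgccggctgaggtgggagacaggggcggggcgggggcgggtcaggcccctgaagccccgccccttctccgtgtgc
SCD, chr10:100346983-100347123, plus strand: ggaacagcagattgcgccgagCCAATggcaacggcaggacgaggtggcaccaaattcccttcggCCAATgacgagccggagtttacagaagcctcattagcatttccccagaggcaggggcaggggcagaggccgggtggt
ACACB, the second of 2 windows, chr12:109154429-109154678, plus strand: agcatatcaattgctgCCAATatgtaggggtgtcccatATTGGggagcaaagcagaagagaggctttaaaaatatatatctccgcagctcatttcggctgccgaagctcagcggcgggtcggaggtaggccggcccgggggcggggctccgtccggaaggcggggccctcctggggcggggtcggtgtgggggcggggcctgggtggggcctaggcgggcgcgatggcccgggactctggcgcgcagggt

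Windows of 250 bases before the start were found for 9 of the 10 members, 15 windows in all, of which those of ACLY and of FADS2 overlap one another, and none was found for FASN. A CCAAT box lay in 8 of the 15 member windows and in 32% of all 35097 windows of that length, on either strand. The members that hold it were ACLY, ACSS2, ACACA, ACACB, SCD and ELOVL5, so it was present both in genes that rose and in genes that did not pass. It was absent from every window of FADS1 and FADS2, which rose, and of ELOVL6, which did not pass. The GC box GGGCGG lay in 11 of the 15 windows against 42.6% of all windows. The E-box CACGTG was found in 1 window, that of ELOVL5, against 6.34% of all. The sterol element in the strict form TCACNCCAC was in none of the 15 and in 0.883% of all. These matches describe letters in a window and not binding.

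Of the 10 genes 7 rose with VIM-AS1 and none fell, in limma with the third-library term. A gene is said to have risen or fallen where its p, adjusted by Benjamini-Hochberg over all tested genes, was below 0.05 in that fit; by this rule 11.5% of all tested genes rose and 7.94% fell. They were both enzymes of acetyl-CoA supply (ACLY, ACSS2), the carboxylase ACACA, the synthase FASN and all 3 desaturases (SCD, FADS1, FADS2), while ACACB and the elongases ELOVL5 and ELOVL6 did not pass. With the replicate number as a block the same 7 were called, against 15.8% of all genes. Without the third-library term limma called 0 of the 10, against 0.0239% of all tested genes, and 5, all higher, had an unadjusted p under 0.05 (5.94% of all genes were higher at that level). Without the term edgeR called 0 and DESeq2 called ACLY (0.0239% and 1.69% of all genes). With it, each called 7 higher (11.8% of all genes by edgeR, 10.6% by DESeq2). The calls depended on which library was left out, with the term in place. Without control replicate 1 or 2 none of the 7 was lost, and without VIM-AS1 replicate 1 or 2 only SCD was. ACLY alone remained called when VIM-AS1 replicate 3 or control replicate 3 was left out, and ACLY and ACSS2 when both were. These settings share a single log2 fold change per gene, that of the first and second libraries, and are not separate checks. It stayed close to the estimate with all 6, at 0.89 for ACSS2, 0.70 for FASN, 0.72 for FADS2, 0.43 for ACACA, 0.36 for FADS1 and 0.33 for SCD. The median log2 fold change of the 10 was 0.44, against -0.02 over all tested genes.

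**Figure D1:**
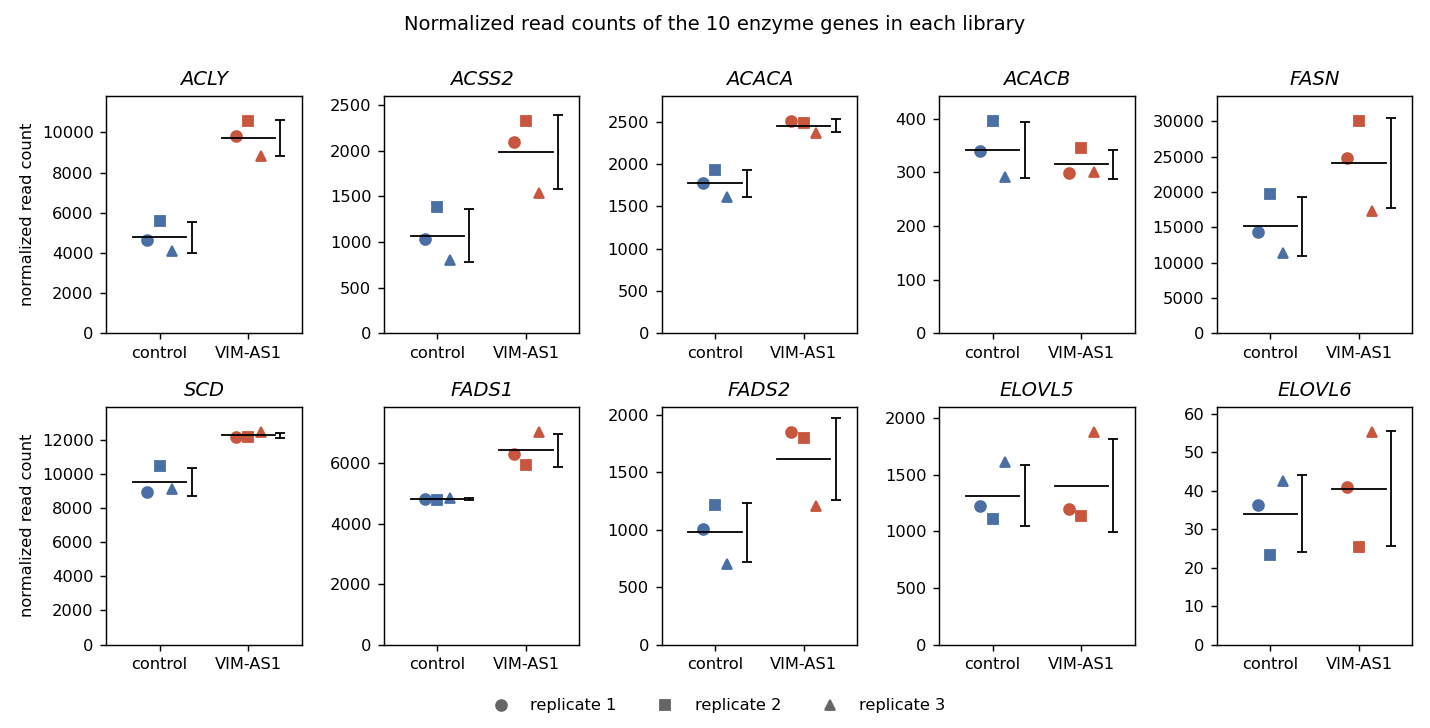
Normalized read count (vertical axis, from 0) of each of the 10 genes in the 3 control (blue) and 3 VIM-AS1 (red) libraries; the marker shape gives the replicate number, the horizontal line the mean and the bar the SD. Groups are apart for ACLY, ACSS2, ACACA, SCD and FADS1, and overlap for the other 5 genes.

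ACLY, the citrate lyase that makes acetyl-CoA from citrate, had the largest estimated change of the 10 genes. It stood at 9817, 10568 and 8804 in the VIM-AS1 libraries and at 4636, 5601 and 4106 in the controls. Every VIM-AS1 library lay above every control, and the group means, 9730 ± 885 and 4781 ± 758 (SD, n = 3), were 2.04-fold apart. The log2 fold change was 1.03 ± 0.11 (SE, with the third-library term; limma adjusted p = 4.68e-06), and the adjusted p without the term was 0.095. Of its exon bases 2.99% are also exon of the opposite-strand gene AC125257.2, which the library kit is not stated to tell apart.

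ACSS2 makes acetyl-CoA from acetate. Its values were 2097, 2325 and 1536 with VIM-AS1 and 1031, 1384 and 798 in the controls. The groups were apart, with VIM-AS1 replicate 3 lowest in its group and control replicate 3 lowest in the other. ACSS2 rose by a log2 fold change of 0.91 ± 0.11 (limma with the term, adjusted p = 2.41e-05; 0.17 without it). The log2 ratio of ACLY to ACSS2 within a library was 2.31 ± 0.18 (SD, n = 3) with VIM-AS1 and 2.18 ± 0.17 in the controls (exact permutation test, two-sided, p = 0.4, adjusted over 5 gene pairs, 0.75). The permutation tests of such ratios do not use the pairing by replicate number. By same-numbered pair this ratio was higher with VIM-AS1 by 0.06, 0.17 and 0.16.

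Of the 2 acetyl-CoA carboxylases, ACACA rose and ACACB did not pass. ACACA, the cytosolic form that feeds fatty acid synthesis, was at 2509, 2485 and 2372 with VIM-AS1 and at 1773, 1934 and 1614 in the controls, with no overlap. It rose by 0.47 ± 0.10 on the log2 scale (limma with the term, adjusted p = 0.00215; 0.32 without it). ACACB, the form at the mitochondrial surface whose malonyl-CoA restrains fatty acid import for oxidation, was at 298, 346 and 301 against 340, 396 and 291. Its groups overlapped, and the log2 fold change was -0.11 with a 95% interval from -0.38 to 0.16 (limma with the term, adjusted p = 0.61).

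The log2 ratio of ACACA to ACACB within a library, which does not depend on the scaling of libraries, was 3.07, 2.84 and 2.97 with VIM-AS1 and 2.38, 2.29 and 2.46 in the controls. All 3 VIM-AS1 ratios lay above all 3 control ratios. The difference of 0.58 had p = 0.1 (exact permutation test, two-sided), the smallest that 3 against 3 allows, and 0.5 after adjustment over the 5 gene pairs compared.

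**Figure D2:**
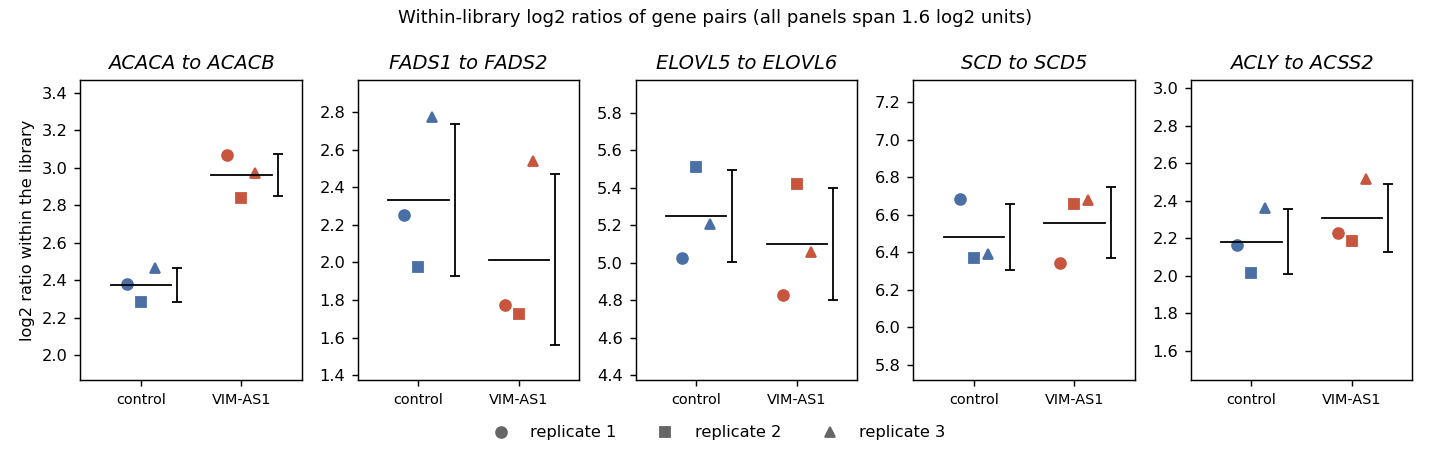
Log2 ratio of normalized counts within each library (vertical axis; every panel spans the same range) for 5 gene pairs, control in blue and VIM-AS1 in red, with the mean as a line and the SD as a bar. The ratio of ACACA to ACACB is 2.96 ± 0.11 with VIM-AS1 against 2.38 ± 0.09; the other 4 pairs overlap between groups.

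FASN, the multifunctional synthase that releases palmitate, was at 24809, 30045 and 17341 with VIM-AS1 and 14290, 19707 and 11406 in the controls. The groups overlapped, since control replicate 2 lay above VIM-AS1 replicate 3, but each VIM-AS1 library exceeded the control with its number. FASN rose by 0.67 ± 0.14 (limma with the term, adjusted p = 0.00228; 0.35 without it). The same-numbered differences were 0.80, 0.61 and 0.60 on the log2 scale.

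All 3 desaturases rose. SCD, the stearoyl-CoA desaturase, was at 12212, 12172 and 12467 with VIM-AS1 and 8973, 10497 and 9159 in the controls. Its groups were apart, and its change of 0.37 ± 0.12 was the smallest among the 7 genes that rose (limma with the term, adjusted p = 0.03; 0.49 without it). It was also the call most easily lost: the adjusted p was 0.06 after correction for GC content and length, 0.097 without VIM-AS1 replicate 1 and 0.13 without VIM-AS1 replicate 2.

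FADS1, the delta-5 desaturase, was at 6313, 5944 and 7016 against 4802, 4773 and 4831. The 3 controls were close to one another and all lay under the VIM-AS1 libraries; the log2 fold change was 0.42 ± 0.10 (limma with the term, adjusted p = 0.00766; 0.40 without it). FADS2, the delta-6 desaturase, was at 1846, 1794 and 1206 against 1008, 1212 and 705. Here VIM-AS1 replicate 3 and control replicate 2 were nearly equal, and the former lay just below the latter, so the groups overlapped. FADS2 rose by 0.74 ± 0.11 (limma with the term, adjusted p = 7.46e-05; 0.26 without it).

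FADS1 (chromosome 11, 61799625 to 61829318, minus strand) and FADS2 (61792980 to 61867354, plus strand) lie on opposite strands of GRCh38, the first within the span of the second, and 490 exon bases, 4.79% of those of FADS1 and 4.44% of those of FADS2, are exon of both. How reads from these bases were assigned is not known, as the sources used here do not say whether counting used strand. The log2 ratio of FADS1 to FADS2 was 2.01 ± 0.46 (SD, n = 3) with VIM-AS1 and 2.33 ± 0.41 in the controls, and lower with VIM-AS1 in each same-numbered pair (exact permutation test, two-sided, p = 0.5; adjusted 0.75).

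The elongases did not pass. ELOVL5, which lengthens polyunsaturated chains, was at 1196, 1134 and 1873 with VIM-AS1 and 1219, 1104 and 1614 in the controls, and its log2 fold change was 0.07 with a 95% interval from -0.14 to 0.29 (limma with the term, adjusted p = 0.68). In both groups the third library was the highest. ELOVL6, which lengthens palmitate to stearate, was scarce, at 41.1, 25.5 and 55.3 against 36.5, 23.2 and 42.7, with 119 and 111 reads in all in the 2 groups. Its interval from -0.41 to 0.86 is wide and takes in the changes of the desaturases. The log2 ratio of ELOVL5 to ELOVL6 was 5.10 ± 0.30 (SD, n = 3) against 5.25 ± 0.25 (exact permutation test, two-sided, p = 0.6, adjusted 0.75). Its same-numbered differences, which the test does not use, were -0.20, -0.09 and -0.15.

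Over same-numbered libraries, 8 of the 10 genes were higher with VIM-AS1 in all 3 pairs, namely the 7 that rose and ELOVL6, while 26.8% of all tested genes were. The groups did not overlap in 5 of the 10, all higher, against 9.5% of all tested genes higher without overlap. ACLY had the widest same-numbered differences (1.08, 0.92 and 1.10), followed by ACSS2 (1.02, 0.75 and 0.94) and FADS2 (0.87, 0.57 and 0.78). The differences of ACACA (0.50, 0.36 and 0.56), SCD (0.44, 0.21 and 0.44) and FADS1 (0.39, 0.32 and 0.54) were smaller. ACACB was the 1 gene with a negative mean difference.

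**Figure D3:**
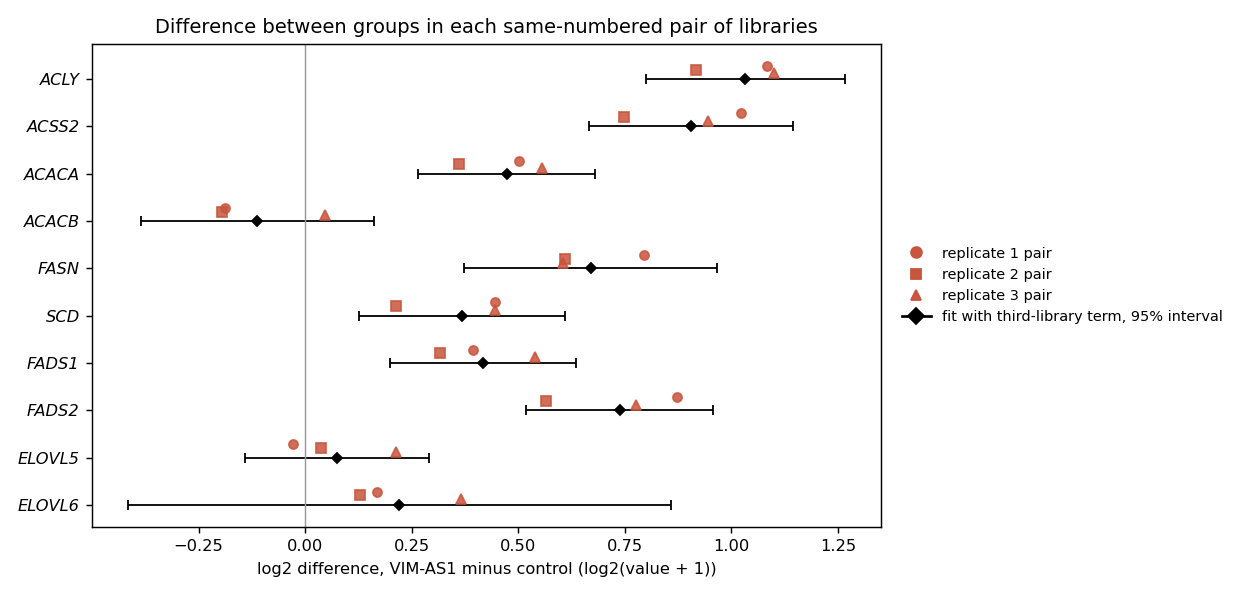
Log2 difference between the VIM-AS1 and the control library of the same replicate number (red markers) for each gene, with the estimate of limma with the third-library term and its 95% interval (black). The intervals of ACACB, ELOVL5 and ELOVL6 include 0; those of the other 7 genes do not.

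The third libraries shifted the members in a similar order in both groups. Relative to the mean of the first and second libraries, the third was higher on the log2 scale by 0.75 for ELOVL6 and 0.69 for ELOVL5 in the VIM-AS1 group, and by 0.54 and 0.48 in the controls. For FASN it was lower, at -0.65 and -0.56, and likewise for FADS2 (-0.59 and -0.65) and ACSS2 (-0.52 and -0.58). SCD and FADS1 lay near 0, between -0.08 and 0.20. The GC content of the longest transcript ran from 41.2% for ELOVL6 to 65.3% for FASN, and its Pearson r with the shift was -0.92 in the VIM-AS1 group and -0.90 in the controls over the 10 genes, which share these libraries. For the log2 fold change itself, r with GC content was 0.47. After each library's trend with GC content and length was removed, limma without the third-library term called ACLY (0.97), ACSS2 (0.91), FASN (0.73) and FADS2 (0.75). The share of all tested genes called in that corrected fit is not given here, so these calls cannot be set against it.

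**Figure D4:**
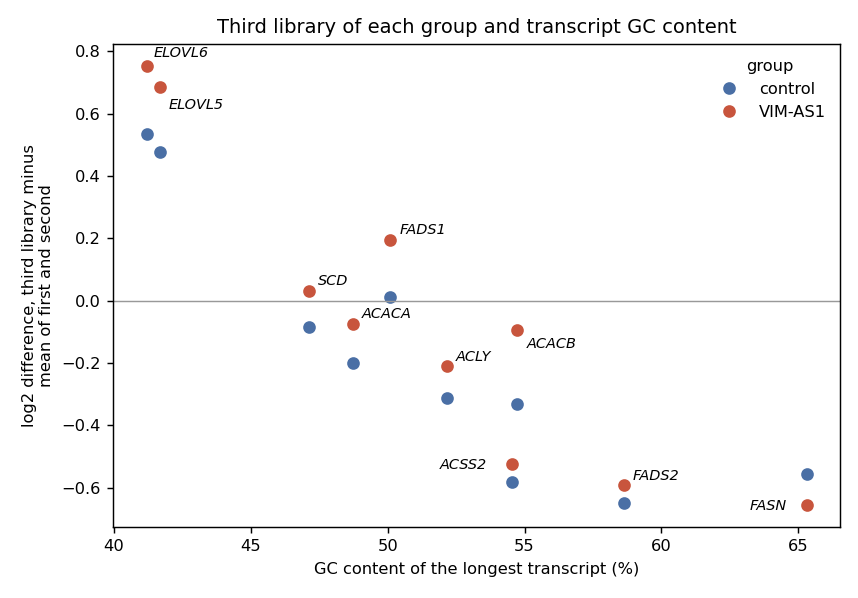
Log2 difference between the third library and the mean of the first and second (vertical axis) against the GC content of each gene's longest transcript in percent (horizontal axis), for control (blue) and VIM-AS1 (red). ELOVL5 at 41.7% and ELOVL6 at 41.2% GC lie highest and FASN at 65.3% among the lowest, in both groups.

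Per kilobase of exon in GENCODE 29, the control libraries ordered the genes from SCD (1780 ± 155 normalized reads per kilobase, SD, n = 3) and FASN (1616 ± 450) through ACLY (916 ± 145), FADS1 (469 ± 2.85), ELOVL5 (344 ± 70.2), ACSS2 (199 ± 54.8), ACACA (136 ± 12.3) and FADS2 (88.4 ± 23.2) to ACACB (23.6 ± 3.60) and ELOVL6 (4.67 ± 1.36). Neighbours in this order were apart in all control libraries, except SCD and FASN, and ACSS2 and ACACA, whose ranges overlapped. With the longest transcript as the length, FADS1 came to 1061 per kilobase, beside ACLY at 1102, and kept its place in the order. FADS2 (192) then came above ACACA (178), so the order of these neighbours depends on which exons are taken as expressed. On both lengths ELOVL6 had the lowest level of the 10.

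Of 11 other tested genes of chain elongation and desaturation, 2 rose, 1 fell and 8 did not pass. Over all tested genes 11.5% rose and 7.94% fell. ELOVL1, an elongase of saturated very long chains, was at 3136, 3299 and 2228 against 2099, 2537 and 1603, and rose (log2 fold change 0.48 ± 0.10, limma with the term, adjusted p = 0.00285). HACD3, a dehydratase of the elongation cycle, rose by 0.47 ± 0.10. FADS3, the neighbour of FADS1 and FADS2 in the same gene cluster, fell where the other two rose, from 3907, 4423 and 3060 in the controls to 2733, 3170 and 1988 (log2 fold change -0.54 ± 0.11, limma with the term, adjusted p = 0.0012). SCD5 was at 130 ± 17.0 against 107 ± 19.8 (SD, n = 3) and ELOVL7 at 19.3 ± 3.65 against 16.7 ± 4.97, neither past the threshold, and ELOVL2 was not analysed here. The log2 ratio of SCD to SCD5 was 6.56 ± 0.19 against 6.48 ± 0.17 (SD, n = 3, exact permutation test, two-sided, p = 1). Its same-numbered differences were -0.34, 0.29 and 0.29.

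Among 17 tested regulators of the pathway 2 rose, 2 fell and 13 did not pass, against 19.4% of all tested genes called. With the replicate block 5 of these regulators rose and 2 fell, against 3315 and 2256 of all 20927 tested genes. MLXIPL, which encodes the carbohydrate-responsive factor ChREBP, known as an activator of ACLY, ACACA and FASN, had the largest change of the list and in the opposite direction to those genes. It was at 378, 432 and 277 with VIM-AS1 and 1025, 1224 and 894 in the controls, with every VIM-AS1 library under every control. MLXIPL fell by 1.54 on the log2 scale (SE 0.12, limma with the term, adjusted p = 1.42e-07; 0.058 without it). Its partner gene MLX rose by 0.31 ± 0.10 (limma with the term, adjusted p = 0.04), close to the threshold. The MLX call was lost under library total scaling (limma with the term, adjusted p = 0.11). It was also lost without VIM-AS1 replicate 1 or 2, without control replicate 2, and without either or both of the third libraries.

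STK11, the kinase upstream of AMPK, which inhibits acetyl-CoA carboxylase, fell by 0.66 on the log2 scale (SE 0.12), from 763, 757 and 443 to 421, 523 and 292, with overlapping groups. SREBF1, the gene of the SREBP that favours fatty acid enzymes, stood at 7558, 9226 and 5107 against 6860, 9199 and 5387, a log2 fold change of 0.02 with a 95% interval from -0.24 to 0.28. SREBF2 stood at 6476 ± 1172 against 5408 ± 1099 (SD, n = 3) and did not pass with the third-library term (log2 fold change 0.26 ± 0.11, limma adjusted p = 0.11), but passed with the replicate block (adjusted p = 0.0111). INSIG1, which holds SREBP in the endoplasmic reticulum and is itself a target of SREBP, was close to the threshold, with a log2 fold change of 0.28 ± 0.10 (limma with the term, adjusted p = 0.049) that edgeR with the same term did not call (adjusted p = 0.055).

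**Figure D5:**
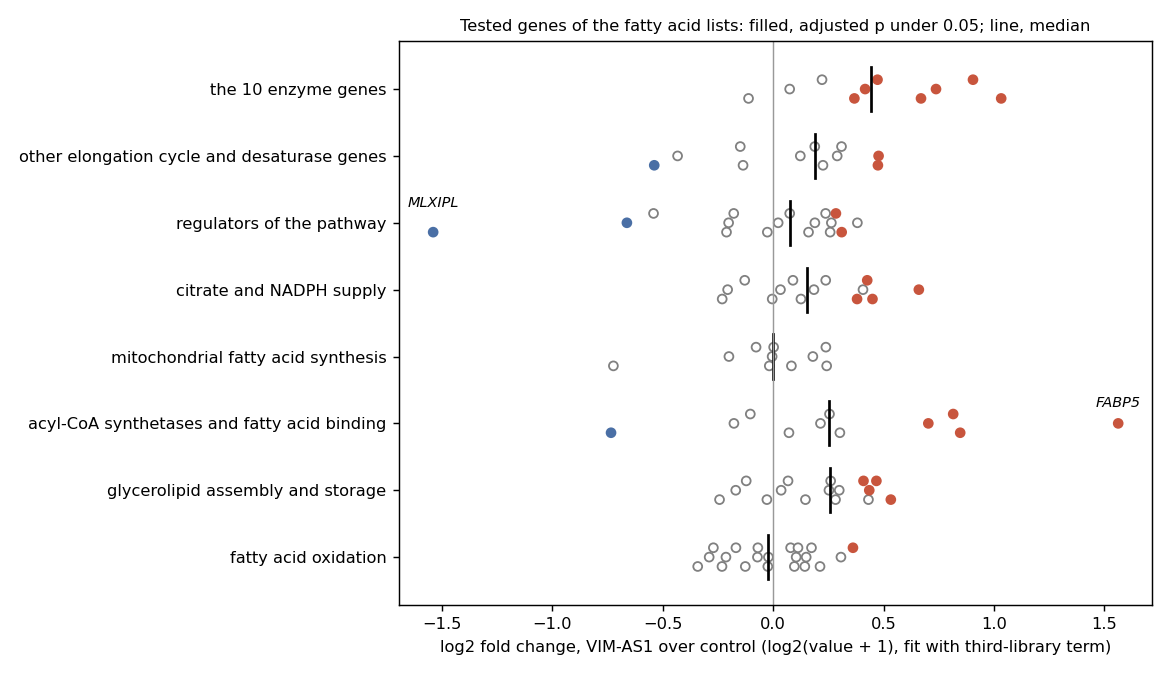
Log2 fold change of VIM-AS1 over control from limma with the third-library term (horizontal axis) for each tested gene of 8 lists; filled points passed the threshold (red higher, blue lower), open points did not, and the black line is the list's median. The 10 enzyme genes have a median of 0.44, and MLXIPL at -1.54 and FABP5 at 1.56 lie farthest out.

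Of 14 genes that supply citrate and NADPH 4 rose, none fell and 10 did not pass. Over all tested genes the shares were 11.5% higher and 7.94% lower. DLAT, a subunit of pyruvate dehydrogenase, was at 673, 615 and 982 against 416, 406 and 610 and rose by 0.66 ± 0.11 (limma with the term, adjusted p = 0.000292). PGD, an NADPH-forming enzyme of the pentose phosphate pathway, rose by 0.43 ± 0.11. The citrate carrier SLC25A1, named after its values were seen, rose by 0.38 ± 0.12. ME1, the cytosolic malic enzyme, stood at 259 ± 72.3 against 264 ± 93.7 (SD, n = 3). The median of the list was 0.16. Blocking by replicate number, 4 genes of this list rose and 1 fell, against 3315 and 2256 of all 20927 tested genes.

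Of 11 genes of acyl-CoA synthesis and fatty acid binding 4 rose and 1 fell, against 11.5% and 7.94% of all tested genes. FABP5, a fatty acid binding protein, was at 160, 137 and 164 against 74.8, 42.8 and 41.9, and its log2 fold change of 1.56 ± 0.23 was larger in estimate than that of any of the 10 enzymes. FABP5 has processed pseudogenes of near-identical sequence, so its counts are uncertain. ACSL1, an acyl-CoA synthetase, rose by 0.85 ± 0.23, from 42.4 ± 1.43 to 77.2 ± 7.69 (SD, n = 3), and SLC27A4, a fatty acid transport protein, by 0.82 ± 0.12. LPL and SLC27A1, named after their values were seen, changed by 0.70 and -0.73.

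Of 16 genes of glycerolipid assembly and storage 4 rose, none fell and 12 did not pass, with a median of 0.26. The shares over all tested genes were 11.5% higher and 7.94% lower. PLIN3, a lipid droplet coat protein, rose by 0.53 ± 0.11, GPAT4, which starts glycerolipid synthesis, by 0.47 ± 0.11, and LPCAT3, which puts polyunsaturated chains into phospholipids, by 0.44 ± 0.15. LPCAT3 was close to the threshold (limma with the term, adjusted p = 0.043) and DESeq2 with the same term did not call it (adjusted p = 0.08). The fourth was AGPAT3 (0.41), named after its values were seen. With the replicate block 4 genes rose and 1 fell, against 3315 and 2256 of all 20927 tested genes.

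None of the 10 genes of mitochondrial fatty acid synthesis was called with the third-library term (median 0.00; by limma without the term 0 had an unadjusted p under 0.05), and 1 rose with the replicate block. Of 21 genes of fatty acid oxidation CPT1A, the carnitine palmitoyltransferase that malonyl-CoA inhibits, rose, at 2513, 2793 and 2189 against 2002, 2327 and 1555 (log2 fold change 0.36 ± 0.11, limma with the term, adjusted p = 0.02). The other 20 did not pass, and the median of the list was -0.02. Over all tested genes, 11.5% rose and 7.94% fell with the third-library term. With the replicate block 2 genes of this list rose and 2 fell, against 3315 and 2256 of all 20927 tested genes. Without the third-library term no gene of these 7 lists was called by limma; for the genes called with it, the adjusted p without it ran from 0.058 (MLXIPL) to 0.64 (SLC25A1). Leaving out VIM-AS1 replicate 3 or control replicate 3 with the term in place left 0 higher and 1 lower gene past the threshold, MLXIPL. Both settings share the estimate from the first and second libraries, which moved little for the others (SLC27A4 0.73, DLAT 0.65, FABP5 1.37, FADS3 -0.50 and STK11 -0.69).

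Outside these lists, the genes whose log2 values over the 6 libraries were most like the members' mean z-score, among 9657 genes with a mean of 100 or more, were RFTN1, WDR82, PSMD11, EIF4EBP2 and THSD4, with Pearson r from 0.994 to 0.999. RFTN1, a lipid raft protein, was at 724, 750.5 and 743 with VIM-AS1 and 444, 517 and 409.9 in the controls. PSMD11, a proteasome subunit, was at 1971, 1937 and 2054 against 1187, 1327 and 1103. These are descriptions of 6 values per gene, taken from a search over many genes.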

How the data were processed

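The submitters' processing notes name fastp, HISAT2, featureCounts and the build hg38, with no versions or order of use; which annotation or strand setting was used is "not given in the sources used here". All deposited values are a signal per gene, reads divided by 1 factor per library: 100% were whole multiples of 1 step within 0.01 read, and the factors (0.819 to 1.27) equal DESeq2's median-of-ratios factors computed on the recovered reads. The table holds 25969 genes, all with a GENCODE 29 symbol.

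Because the values are normalized, limma (3.58.1, R 4.3.3) with an intensity trend was run on log2(value + 1), which understates changes of scarce genes, with 2-sided p-values adjusted by Benjamini-Hochberg over 20927 genes (mean of at least 1) and a threshold of 0.05. The fit was tested on simulated data with no shift or with a third-library shift shared by both groups. That shift has the form of the term, so the simulation cannot show whether the term suits these libraries. Members, lists, the rule for named genes and the term for the third libraries were chosen with earlier results of these data known. Named were the 10 members, up to 3 called genes per list with the largest change, 9 genes always, and the 5 genes of most similar profile. One gene that the rule names is not reported here. Same-numbered libraries deviated together from their group means (Pearson r 0.32, 0.72 and 0.84 over the 13175 genes of mean 20 or more), and were treated as paired because all 3 were above 0.1. This rule cannot establish pairing. Deviations of 3 libraries from their own mean cancel out, so a shift shared by the third libraries raises every correlation among the other libraries. The check does not single out the pair numbered 1: VIM-AS1 replicate 1 correlated more with control replicate 2 (0.42), and control replicate 1 slightly more with VIM-AS1 replicate 2 (0.33). The replicate block and the same-numbered differences therefore rest on the numbers alone. The labels give only the numbers. edgeR (4.0.16) and DESeq2 (1.42.0) were run on the recovered reads as alternatives (edgeR called 5 genes without the term and 2479 higher with it), with other scalings, filters, a pseudocount of 0.1, a spline correction for GC content and length (5 degrees of freedom each) and single libraries left out. Median-of-ratios scaling equals the deposited one and was not run separately. Counts of reads are not independent molecules, so depth limits cover counting error only.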

Additional observations from a re-analysis of the deposited data

How the results depend on the processing

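With the third-library term, 7 members were called higher and 0 lower under TMM and library total scaling, no filter, a mean of 10 or more, the pseudocount of 0.1, edgeR, DESeq2 and the replicate block with and without GC and length correction, and 6 with that correction alone. The count was 2 without both of the third libraries, a setting chosen after seeing the data, and ranged from 1 to 7 over single libraries left out. Without the term, 0 members were called, against 1 under library total scaling and under DESeq2, 4 with GC and length correction, 7 with the replicate block with or without that correction, 2 without both of the third libraries and 0 to 0 over single libraries left out. The cause of these differences was not tested, and the share of all tested genes called with GC and length correction is not given here. Blocking by replicate number lost no call of a named gene made with the term.

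Over the 7 other lists, 17 genes were called higher and 4 lower with the term. Higher counts were 35 with the replicate block and GC correction, 0 without both of the third libraries, 0 without either of them and 8 without VIM-AS1 replicate 2, a range of 0 to 17 over single libraries left out. Lower counts were 7 under library total scaling, 8 with the replicate block, 1 without both of the third libraries, and 1 to 10 over single libraries left out, the highest without control replicate 1.

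Signs turned in genes near 0 that were not called. Over single libraries left out and without the term, ELOVL5 ran from -0.15 to 0.23, ELOVL6 from -0.030 to 0.51, SREBF1 from -0.17 to 0.26, ELOVL7 from -0.033 to 0.38 and ME1 from -0.24 to 0.26. With the term SREBF1 ran from -0.11 to 0.13, ELOVL7 from -0.082 to 0.48 and ME1 from -0.14 to 0.10. SREBF1 was at -0.0381 under library total scaling, and ME1 at 0.072 with GC and length correction, with or without the replicate block, and at 0.053 without both of the third libraries. ELOVL6, with 119 and 111 reads, is the member most limited by depth.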
